A study of Mus musculus with 12 samples.

Results

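The genes described here are 39 macrophage and antigen presentation genes, taken by symbol from a written list and matched to Ensembl identifiers in both count tables, which hold 38293 identifiers each. RNA was sequenced from hearts of C57BL/6J mice in 4 groups of 3 animals: WT hearts after sham surgery (WT sham), WT hearts 14 days after ischaemia–reperfusion (WT IR), and hearts of wild-type littermates (Zeb2 WT IR) and of Zeb2 transgenic mice (Zeb2 cTg IR) 14 days after IR. IR was made by tying off the left anterior descending artery for 1 h and releasing it, and the mice were 8 to 9 weeks old; the methods name male and female mice in their opening section and male mice where they describe the lines. Zeb2 cTg mice carry αMHC-Cre, a Cre recombinase driven by the murine Myh6 promoter and so active in cardiomyocytes, and Rosa26-LoxStopLoxZeb2 on both alleles, so the transgene is meant for cardiomyocytes and not for the macrophages whose genes are described here; whether the littermates carried Cre or the unrecombined transgene is not given in the sources used here. The left ventricle is named as the tissue in the records, the infarct with the border zone in the design text, and the remote zone in the methods, so the region behind the values is uncertain.

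Macrophages are phagocytes that live in the healthy heart and are joined after injury by cells that develop from blood monocytes. Resident cardiac macrophages are commonly recognised by Lyve1, Timd4, Folr2, Cd163 and Mrc1, and monocyte-derived cells by the chemokine receptor Ccr2. Macrophages clear dead cells, make the C1q chains that start the classical complement cascade, and load peptides on MHC class II molecules to show them to CD4+ T cells. In whole tissue, fewer cells of a type and less RNA per cell cannot be told apart, so every value below is the level of a gene's RNA in the heart sample and not in a macrophage.

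The 12 libraries held between 20215781 and 36816818 counts on genes, of which 60.6% to 73.5% fell on mitochondrial genes, and 1 normalized CPM (TMM-scaled counts per 1000000 counts) stood for 17.2 to 37.8 counts. The 4 groups lie in 2 tables that were normalized separately and share no library, so levels from both tables are set side by side without a test. Zeb2, the targeted gene, served as the check of the labels. Its level was 54.7, 57.8 and 67.0 CPM in Zeb2 WT IR hearts and 55.5, 56.9 and 58.7 CPM in Zeb2 cTg IR hearts, a log2 difference of -0.07 ± 0.12 (SE, edgeR quasi-likelihood test, adjusted p = 0.750). Zeb2 was thus not higher in the libraries that carry the transgenic label, which are called Zeb2 cTg-labelled libraries below, and directions drawn from them rest on the label alone. All 6 defining macrophage markers (Adgre1, Cd68, Csf1r, C1qa, Mrc1 and Cd163) were above 1 CPM in every library.

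Stretches of the promoters of 7 members are shown because the results turn on these genes or on the group they stand for. Each stretch is the 120 bases before the RefSeq start site on the GRCm38.p6 assembly, 5′ to 3′ on the gene's strand, and capitals mark matches on either strand to GAGGAAG (a core bound by PU.1, the macrophage transcription factor encoded by Spi1), TAGCAAC (the core of the MHC class II X box), GATTGG (the Y box, a CCAAT box read backwards), TGANTCA (AP-1) and CAGGTG (an E-box of the kind ZEB2 binds). The RefSeq table had promoters for 29 of the 39 members. H2-Eb1 and H2-Aa encode MHC class II chains, Spp1, Gpnmb and Trem2 belong to the lipid-associated group, Ccr2 marks recruited monocytes, and Cd163 marks resident macrophages.
H2-Eb1 (chr17:34305747-34305866, plus strand): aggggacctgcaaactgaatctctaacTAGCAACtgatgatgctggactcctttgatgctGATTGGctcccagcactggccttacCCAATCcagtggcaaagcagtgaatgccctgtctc
H2-Aa (chr17:34287824-34287943, minus strand): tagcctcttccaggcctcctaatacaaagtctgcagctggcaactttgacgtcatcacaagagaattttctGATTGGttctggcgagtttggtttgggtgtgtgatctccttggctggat
Spp1 (chr5:104434991-104435110, plus strand): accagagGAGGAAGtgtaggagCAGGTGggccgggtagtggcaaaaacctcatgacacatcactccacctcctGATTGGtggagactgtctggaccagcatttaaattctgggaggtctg
Gpnmb (chr6:49036398-49036517, plus strand): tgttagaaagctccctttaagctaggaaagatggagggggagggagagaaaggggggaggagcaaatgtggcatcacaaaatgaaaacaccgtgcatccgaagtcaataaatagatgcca
Trem2 (chr17:48346281-48346400, plus strand): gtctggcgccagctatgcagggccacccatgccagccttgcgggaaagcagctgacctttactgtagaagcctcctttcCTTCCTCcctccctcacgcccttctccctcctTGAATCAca
Cd163 (chr6:124304531-124304650, plus strand): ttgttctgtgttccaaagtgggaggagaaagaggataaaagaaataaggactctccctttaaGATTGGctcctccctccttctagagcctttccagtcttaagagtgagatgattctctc
Ccr2 (chr9:124102063-124102182, plus strand): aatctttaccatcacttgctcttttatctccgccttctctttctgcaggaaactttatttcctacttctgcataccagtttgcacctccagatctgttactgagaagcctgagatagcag

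Of the stretches printed, those of Gpnmb and Ccr2 held no match to any of the 5 motifs, the stretch of Spp1 held 3 different motifs, and that of H2-Eb1 held the X box core and the Y box on both strands. Over the 250 bases before the start, GAGGAAG was found in 9 of 33 member promoters (27.3%, several members have more than 1 start) and in 10.6% of all 32851 promoters of the same length. The 8 members with it were C1qc, Fcgr1, Fcgr3, Itgam, Laptm5, Mrc1, Spp1 and Trem2. GATTGG was found in 8 member promoters (24.2%) and 14.6% of all, and TGANTCA in 5 (15.2%) and 6.75%. TAGCAAC was found in 3 (9.09%) and 3.16% of all, and CAGGTG in 4 (12.1%) and 17.2%. The members with TAGCAAC were Cd68, H2-Eb1 and Mpeg1, of which only H2-Eb1 encodes an MHC class II chain. All of these are matches of letters in a window and not bound sites.

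The comparison of WT IR with WT sham hearts asks how cardiac injury changed gene expression. Macrophage and antigen presentation genes were higher after IR: 26 of the 38 members tested rose (edgeR quasi-likelihood test, adjusted p under 0.05), none fell, and 12 did not pass. Among all 13756 genes tested, 11.0% rose and 9.74% fell. The members were chosen with earlier results of these data known, so their comparison with all genes is a description and not independent support. The members' median log2 fold change was 0.97, against 0.0064 over all genes tested, and 36 of the 38 were above 0, against 50.8% of all genes. The groups did not overlap, with every WT IR heart above every WT sham heart, for 24 members, against 20.5% of all genes, and no member had every WT IR heart below every WT sham heart, against 19.3%. Lyz1 was not tested because of its low counts (7, 4 and 4 in sham hearts and 8, 22 and 16 in WT IR hearts).

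The largest changes were in the lipid-associated group, genes of macrophages that take up lipid and cell debris, and all 4 members rose. Gpnmb, a lysosomal glycoprotein, had 0.378, 0.337 and 0.233 CPM in sham hearts and 2.41, 4.60 and 5.37 CPM in WT IR hearts, a log2 fold change of 3.64 ± 0.38 (SE, n = 3 per group, edgeR, adjusted p = 0.0020). Spp1, which encodes the secreted glycoprotein osteopontin, was counted 2, 3 and 1 times in sham hearts and 47, 111 and 113 times in WT IR hearts. Every IR heart thus lay far above every sham heart for both genes. The summed counts of Spp1, 6 against 271, give a ratio of 35.6 with a 95% exact interval of 16.2 to 98.0, which covers counting error only, and its fitted log2 fold change was 5.10 ± 0.57 (SE, edgeR, adjusted p = 0.0021). Lgals3, which encodes the sugar-binding galectin-3, rose by a log2 fold change of 2.28 and Trem2, a receptor for lipids and apolipoproteins, by 1.97. Spp1 and Lgals3 are not restricted to macrophages.

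The recruited monocyte and dendritic cell group held 2 members that rose and 4 that did not pass. Ccr2, the receptor that guides monocytes out of the blood, had 2.57, 1.99 and 3.08 CPM in sham hearts and 5.19, 11.9 and 14.8 CPM in WT IR hearts, a log2 fold change of 2.09 ± 0.36 (SE, edgeR, adjusted p = 0.0068). Cx3cr1, the fractalkine receptor, went from 3.59, 4.29 and 3.96 to 5.47, 9.89 and 9.92 CPM, with a log2 fold change of 1.09 ± 0.22 (SE, edgeR, adjusted p = 0.0112). The groups did not overlap for either gene, and WT IR heart 1 was the lowest of the 3 injured hearts for both. Itgam and Itgax (integrin chains), Cd14 (a co-receptor for endotoxin) and Cd86 (a co-stimulator of T cells) had log2 fold changes between 0.77 and 1.61 with adjusted p between 0.0541 and 0.0604 (edgeR).

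The resident group stood beside this with 1 of 5 members called. Mrc1, the mannose receptor, rose from 28.6, 26.6 and 29.0 CPM to 34.2, 56.9 and 57.5 CPM, a log2 fold change of 0.82 ± 0.17 (SE, edgeR, adjusted p = 0.0133). Lyve1, a hyaluronan receptor also made by lymphatic endothelium, had 7.11, 7.94 and 7.10 CPM in sham and 8.56, 8.70 and 12 CPM in WT IR hearts; these values did not overlap, but its log2 fold change of 0.39 ± 0.14 did not pass (adjusted p = 0.0788, edgeR). Cd163, the haemoglobin scavenger receptor, had 6.01, 5.49 and 5.53 CPM in sham and 5.91, 5.13 and 4.62 CPM in WT IR hearts (log2 fold change -0.12 ± 0.12 (SE, edgeR), adjusted p = 0.522). Its order among the injured hearts was the reverse of that of Ccr2, with the lowest value in WT IR heart 3. Folr2, a folate receptor, and Timd4, a receptor for phosphatidylserine on dying cells, had log2 fold changes of 0.14 and -0.05. Cd163 and Timd4 were the 2 members below 0, and both were above 0 when libraries were scaled on cardiomyocyte genes. A p that misses the threshold does not show that these genes stayed at the sham level.

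**Figure D1:**
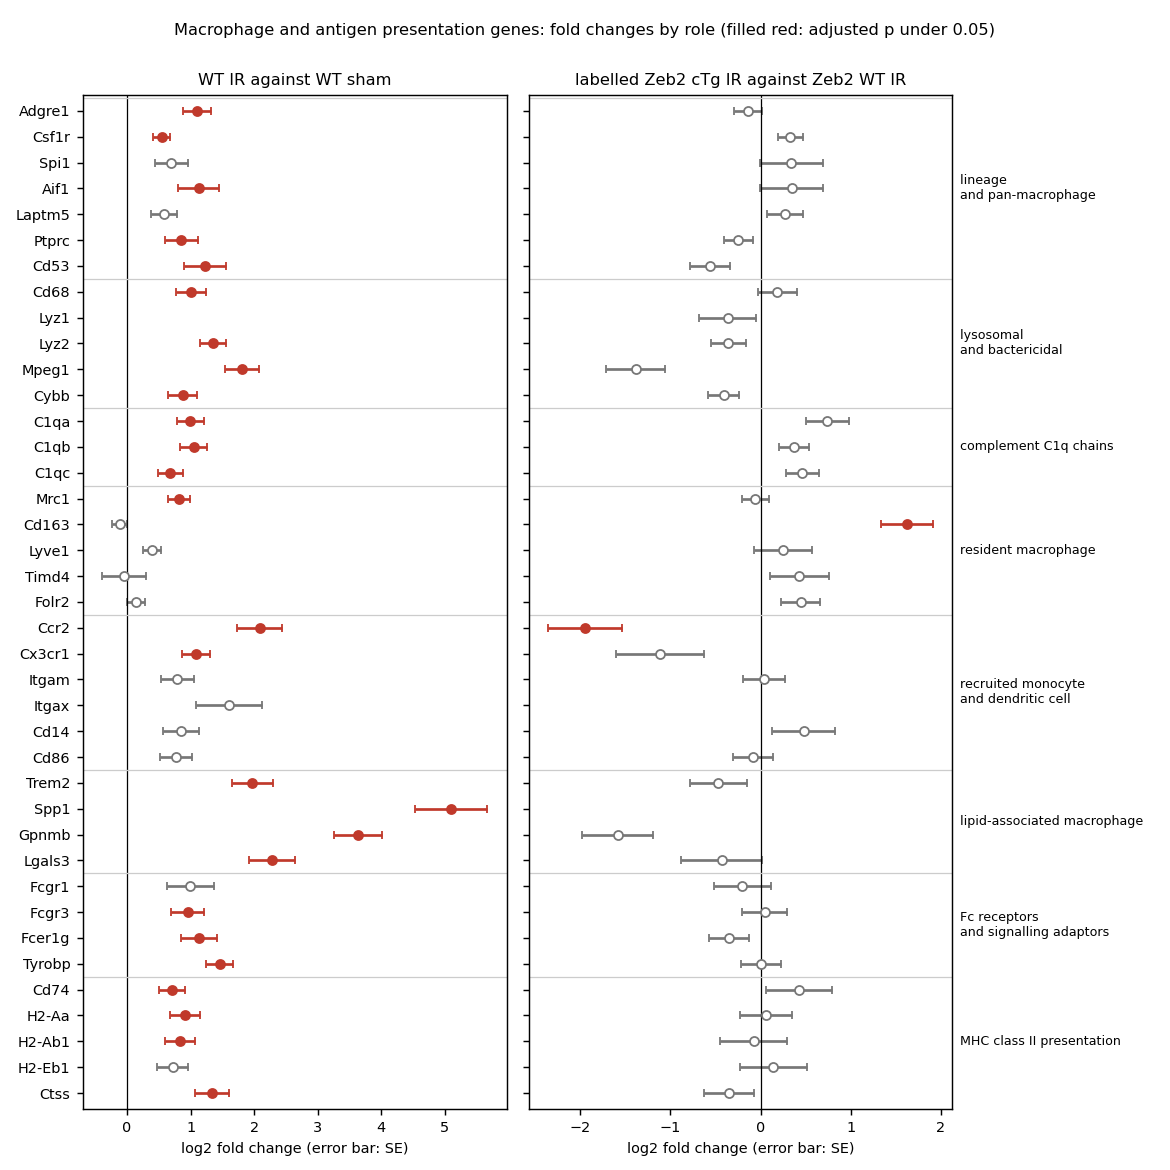
The log2 fold change of each member (horizontal axis, points with SE bars) is drawn by role for WT IR against WT sham on the left and for the Zeb2 cTg-labelled libraries against Zeb2 WT IR on the right; filled red points passed an adjusted p of 0.05 in edgeR and open points did not. On the left 26 members passed, all above 0, with Spp1 at 5.10, and on the right Cd163 at 1.63 and Ccr2 at -1.95 passed.

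The lineage and pan-macrophage genes, carried by most macrophages or most leukocytes, were higher in 5 of 7 cases. Adgre1, which encodes the surface protein F4/80, rose from 10.9, 8.34 and 10.5 CPM to 14.0, 22 and 27.7 CPM, a log2 fold change of 1.10 ± 0.22 (SE, edgeR, adjusted p = 0.0108). Csf1r, the receptor for the main macrophage growth factor, rose from 24.7, 23 and 25.7 CPM to 27.5, 37.8 and 41.7 CPM (0.54 ± 0.14 (SE), adjusted p = 0.0238, edgeR). No injured heart overlapped a sham heart for either gene. Aif1 (a calcium-binding protein), Ptprc (the leukocyte phosphatase CD45) and Cd53 (a leukocyte tetraspanin) also rose, by log2 fold changes of 0.86 to 1.22. Within this group the injured and sham hearts overlapped for Ptprc (8.70, 8.59 and 9.72 against 9.56, 16.6 and 22.7 CPM) and Cd53 (3.78, 2.30 and 4.66 against 4.44, 9.10 and 10.8 CPM). Spi1 overlapped too, at 1.70, 1.29 and 1.11 CPM against 1.53, 2.43 and 2.80 CPM, and like Laptm5, a lysosomal membrane protein, did not pass (adjusted p = 0.0842 and 0.0703, edgeR). In each overlapping gene, WT IR heart 1 was the injured heart within the sham range.

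All 4 tested lysosomal and bactericidal genes rose. Mpeg1, which encodes the pore-forming protein perforin-2, went from 8.66, 6.59 and 9.55 CPM to 17.1, 30.0 and 38.7 CPM, a log2 fold change of 1.81 ± 0.27 (SE, edgeR, adjusted p = 0.0045). Lyz2, lysozyme of myeloid cells, went from 57.7, 52.6 and 55.1 CPM to 91.0, 146 and 184 CPM, a log2 fold change of 1.35 ± 0.21 (SE, edgeR, adjusted p = 0.0049). Cd68, a lysosomal membrane glycoprotein, and Cybb, the catalytic chain of the phagocyte NADPH oxidase, rose by log2 fold changes of 1.00 and 0.88. Lyz1 and Lyz2 are near-identical neighbours, so their split of reads is uncertain.

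The C1q chains, 3 subunits of 1 complex, rose together. C1qb went from 13.2, 12.2 and 15.3 CPM to 18.7, 28.5 and 36.7 CPM, a log2 fold change of 1.05 ± 0.21 (SE, edgeR, adjusted p = 0.0110). C1qa went from 17.7, 14.9 and 15.9 CPM to 21.4, 31.8 and 43.6 CPM, a log2 fold change of 0.99 ± 0.21 (SE, edgeR, adjusted p = 0.0138). C1qc rose by 0.68, and it was the only chain with overlapping hearts (16.8, 16.2 and 20.3 CPM against 19.4, 29.8 and 35.9 CPM).

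Among the Fc receptors and signalling adaptors, 3 of 4 rose. Tyrobp, the adaptor DAP12 through which TREM2 signals, went from 4.01, 3.56 and 3.78 CPM to 7.37, 9.73 and 14.1 CPM, a log2 fold change of 1.46 ± 0.22 (SE, edgeR, adjusted p = 0.0046). Fcer1g, the common chain of activating Fc receptors, went from 2.46, 2.70 and 2.68 CPM to 3.09, 7.14 and 6.90 CPM (1.13 ± 0.29 (SE), adjusted p = 0.0239, edgeR). Neither pair of groups overlapped. Fcgr3, a low-affinity IgG receptor, rose by a log2 fold change of 0.95. Fcgr1, the high-affinity IgG receptor, overlapped (1.21, 0.981 and 1.28 CPM against 1.25, 2.04 and 3.65 CPM) and did not pass (log2 fold change 1.00, adjusted p = 0.0809, edgeR).

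For MHC class II presentation, 4 of 5 genes rose. Ctss, the protease that trims the invariant chain, went from 8.47, 7.63 and 7.57 CPM to 11.7, 20.2 and 28.3 CPM, a log2 fold change of 1.34 ± 0.26 (SE, edgeR, adjusted p = 0.0103). H2-Aa, the class II alpha chain, went from 24.7, 24.7 and 33.8 CPM to 32.5, 53.7 and 69.8 CPM (0.91 ± 0.24 (SE), adjusted p = 0.0270, edgeR), and its lowest injured heart lay within the sham range. Cd74, the invariant chain, rose by 0.70 with no overlap and H2-Ab1, the partner chain of H2-Aa, by 0.83 with overlap. With each library left out in turn, Ctss passed in 5 of 6 fits, H2-Aa in 2, and Cd74 and H2-Ab1 in 1 each. H2-Eb1, whose promoter stretch held the X box and both Y boxes, had a log2 fold change of 0.72 and did not pass (adjusted p = 0.0655, edgeR). Per kilobase of the longest transcript, Cd74 was the most abundant of the 5 in both groups, at a mean of 26.9 CPM per kb in sham and 43.8 CPM per kb in WT IR hearts. Lyz2 was above it, at 41.9 and 106.8 CPM per kb.

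**Figure D2:**
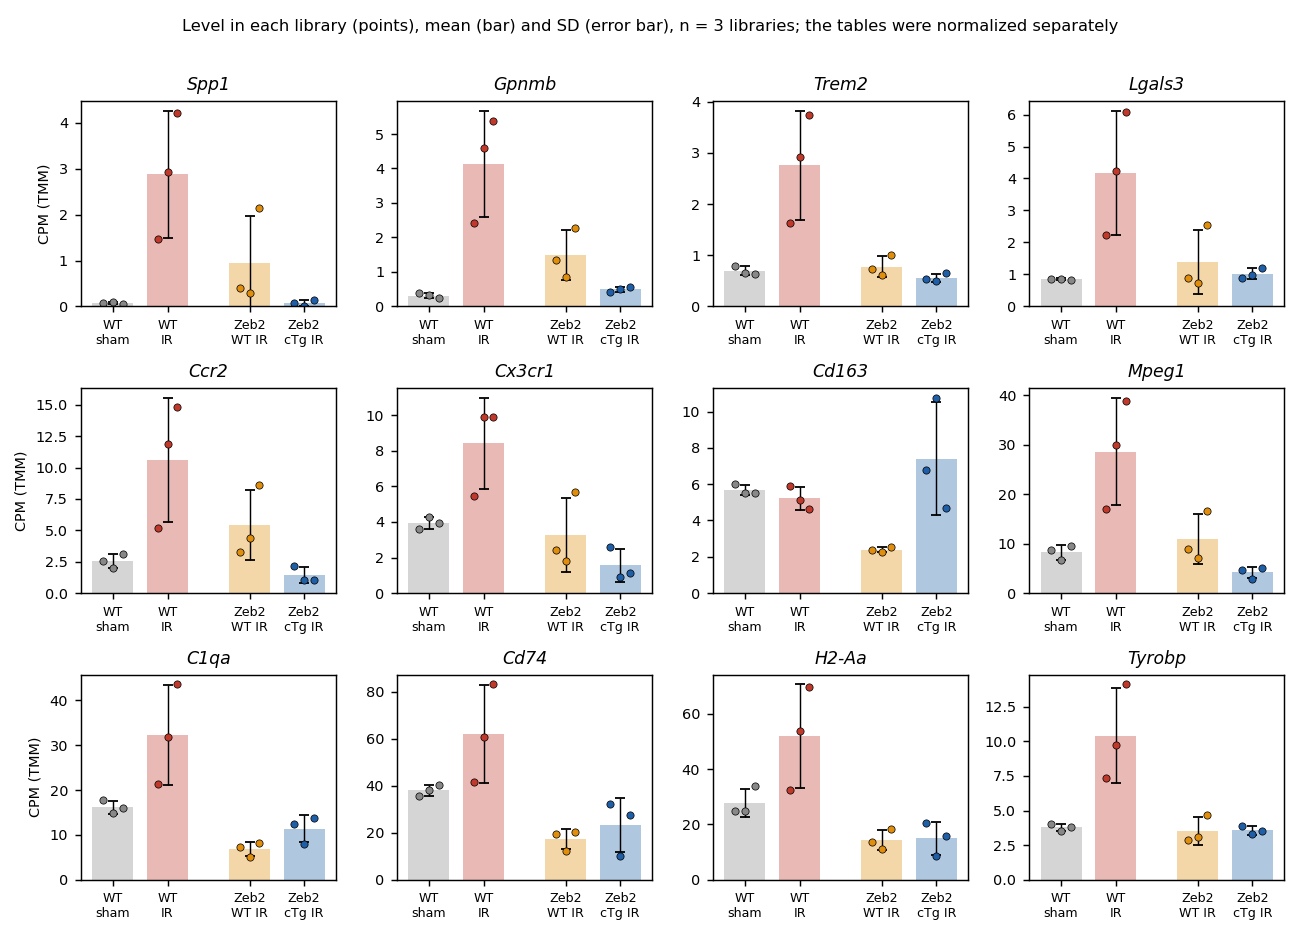
The level of 12 members (vertical axis, CPM with TMM normalization) is shown for each library as a point, with the mean of 3 libraries as a bar and the SD as an error bar. WT IR hearts stood above WT sham hearts for Spp1, Gpnmb, Trem2, Lgals3 and Ccr2 without overlap, while Cd163 overlapped between WT sham and WT IR and was separate between Zeb2 WT IR (2.27 to 2.53 CPM) and the Zeb2 cTg-labelled libraries (4.66 to 10.8 CPM).

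The injured hearts were unequal. WT IR heart 1 had the lowest of the 3 injured values for 37 of the 39 members, and WT IR heart 3 had the highest for 34. The summed level of the 39 genes was 350.0, 330 and 378 CPM in sham hearts and 457, 726 and 909 CPM in WT IR hearts. The sum of 9 fibroblast markers had the same order among injured hearts, at 1868, 3010 and 4663 CPM (516 to 919 CPM in sham hearts), and 8 of these 9 markers rose, led by Lum, Postn and Dpt (log2 fold changes 2.30, 3.49 and 1.84). The sum of 22 cardiomyocyte markers had the opposite order, at 67677, 57419 and 52519 CPM (67871 to 74978 CPM in sham hearts), and 7 of the 22 fell, led by Ckm, Myl3 and Cox6a2 (log2 fold changes -0.68, -0.56 and -0.56). Whether these shifts of cell markers had a part in the members' values was not tested. When libraries were scaled on the cardiomyocyte markers, the median of all genes moved by 0.297 on the log2 scale, 35 members rose and none fell, and 3742 of all genes rose and 282 fell in place of 1519 and 1340. The members' median was then 1.29.

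The count of members that rose moved with the libraries in the fit, and the cause was not tested. It was 14, 6 and 13 without WT sham heart 1, 2 and 3, and 36, 11 and 19 without WT IR heart 1, 2 and 3. The number over all genes moved too, from 1519 with every library in the fit. It was 725, 226 and 699 without the sham hearts and 2543, 570 and 993 without the WT IR hearts, in the same order. Of the 26 members that rose, 6 passed in all 6 of these fits: Lyz2, Mpeg1, Spp1, Gpnmb, Lgals3 and Tyrobp. Another 7 passed in 1 of the 6: Aif1, Ptprc, Cd53, Cybb, C1qc, Cd74 and H2-Ab1. No member was lower in any of the 6 fits. The 26 kept a positive log2 fold change in every fit.

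**Figure D3:**
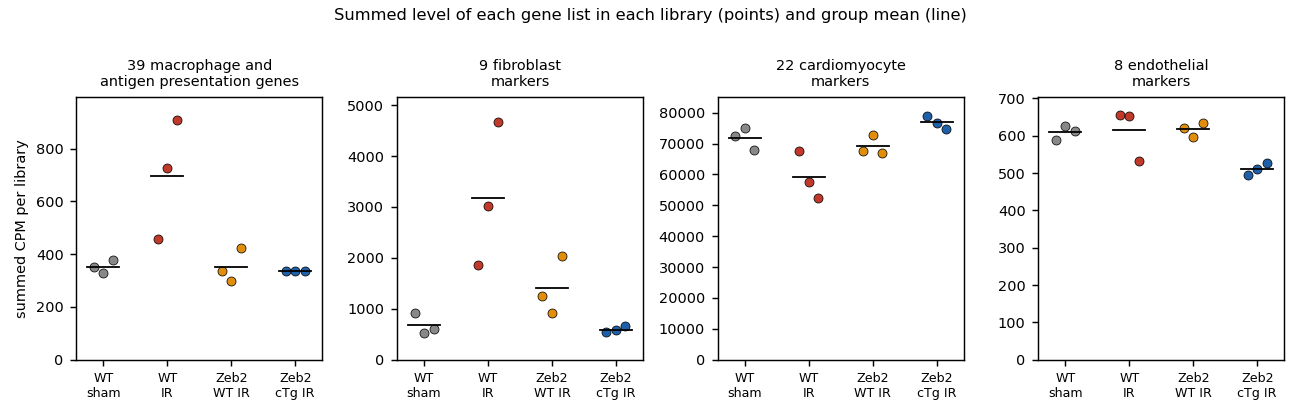
The summed level (vertical axis, CPM, from 0) of the 39 genes and of marker lists of 3 other cell types is shown per library as points with the group mean as a line. WT IR hearts spread from 457 to 909 CPM for the 39 genes, in the order of their fibroblast sums, and the Zeb2 cTg-labelled libraries lay between 335 and 338 CPM.

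Relative to the lineage and pan-macrophage genes, some of which other leukocytes also carry, some roles changed more than others. The log2 ratio of the summed lipid-associated genes to the summed lineage and pan-macrophage genes was -4.75, -4.70 and -5.06 in sham hearts and -3.06, -2.74 and -2.63 in WT IR hearts. The ratio of lysosomal and bactericidal genes went from between 0.39 and 0.47 to between 0.91 and 1.05, and that of recruited genes from between -2.09 and -1.91 to between -1.77 and -1.43. None of these 3 ratios overlapped between sham and injured hearts, and WT IR heart 1 was separate from the sham hearts in each. The C1q ratio also lay apart, at -0.25 to -0.18 against -0.12 to -0.04, as did that of Fc receptors and adaptors, at -2.0 to -1.96 against -1.71 to -1.50. The ratios of MHC class II genes (0.69 to 0.97 against 0.83 to 1.02) and of resident genes (-0.33 to -0.20 against -0.61 to -0.29) overlapped. The log2 ratio of Ccr2 to Cd163 was -1.23, -1.46 and -0.84 in sham hearts and -0.19, 1.21 and 1.68 in WT IR hearts. These ratios are descriptions and were not tested, and 3 against 3 hearts could not give an exact permutation p below 0.1.

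**Figure D4:**
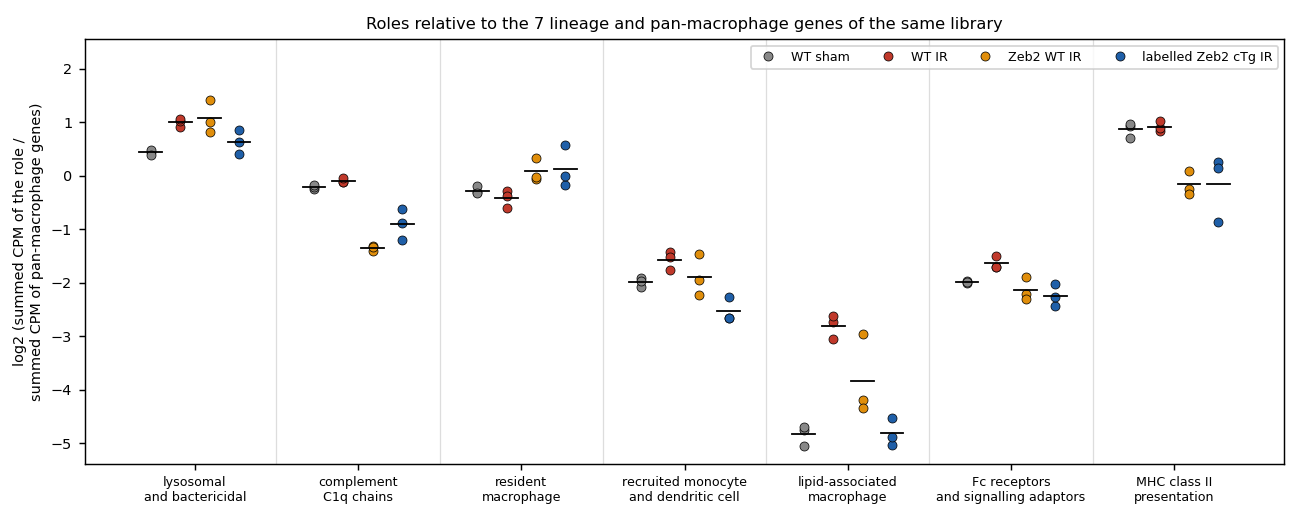
The log2 ratio of the summed CPM of each role to the summed CPM of the 7 lineage and pan-macrophage genes of the same library (vertical axis) is shown for each library as a point, with the group mean as a line. The lipid-associated ratio spanned -5.06 to -4.70 for sham hearts and -3.06 to -2.63 for injured WT hearts, and the MHC class II ratio overlapped between these groups.

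Other genes of the same pathways moved in the same direction where they passed. Their lists were chosen by function, also with earlier results of these data known, and are not independent support. Of 12 tested genes further along the MHC class II pathway, 6 rose, led by the lysosomal proteases Ctsz, Ctsl and Ctsh (log2 fold changes 0.95, 0.62 and 0.50). Of 15 MHC class I genes 2 rose, a share near the 11.0% of all genes, the peptide transporter Tap1 (0.50) and the immunoproteasome subunit Psmb9 (0.61). Of 18 further phagocytic and scavenger receptors, 9 rose, led by Clec4n, the C3a receptor C3ar1 and the scavenger receptor Msr1 (2.25, 1.33 and 1.01). Of 9 further lipid-associated and lysosomal genes, 6 rose, led by the protease Ctsk, the lysosomal lipase Lipa and the apolipoprotein Apoe (2.42, 0.70 and 1.05). Of 7 other complement genes tested, 5 rose, among them the C1 inhibitor Serping1 and the protease C1s1 (1.54 and 1.20). Ctsk, Serping1 and C1s1 are also made by fibroblasts. In the remaining lists 2 of 9 ITAM signalling genes (Syk and Inpp5d), 2 of 5 NADPH oxidase genes (Cyba and Rac2) and 3 of 12 growth and transcription factor genes (Ikzf1, Maf and Runx1) rose. No gene of these 8 lists fell.

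Most markers of other leukocytes were low. The summed T cell markers lay between 0.736 and 2.38 CPM and the summed neutrophil markers between 1.13 and 3.67 CPM in the 6 WT hearts, and the neutrophil marker Ly6g had no count in any of the 12 libraries. Ighm, the immunoglobulin M heavy chain, rose by a log2 fold change of 1.31 (4.20, 4.38 and 3.49 against 4.81, 14.3 and 11.2 CPM), and the summed B cell markers reached 13.2 and 15.3 CPM in WT IR hearts 3 and 2. Cpa3, a mast cell protease, rose by 1.68 from at most 0.227 CPM. The summed dendritic cell markers, nearly all of them Zbtb46, which endothelial cells also express, were 13.6 to 15.1 CPM in sham and 11.7 to 16.8 CPM in WT IR hearts. Flt3, Clec9a and Cd209a had too few counts to be tested, and each was above every sham heart in every injured heart (Cd209a at 0.113, 0.153 and 0.0582 against 0.250, 0.846 and 1.04 CPM). B cells and dendritic cells also carry MHC class II, and their part in the MHC class II values was not tested.

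The comparison of Zeb2 cTg IR with Zeb2 WT IR hearts asks what a cardiomyocyte Zeb2 transgene changed in the injured heart. Here 1 of the 37 members tested was higher in the Zeb2 cTg-labelled libraries, the resident marker Cd163, and 1 was lower, the recruited-monocyte marker Ccr2 (edgeR quasi-likelihood test, adjusted p under 0.05). Among all 13018 genes tested, 2.14% were higher and 1.51% lower, so the members' shares were near the background. Their median log2 fold change was 0.0058 against 0.0059 over all genes tested, and 19 were above 0, against 50.6% of all genes. The groups did not overlap for 2 members in the higher and 5 in the lower direction, against 13.4% and 12.8% of all genes. An unadjusted p under 0.05 was found for 11 members. The last of these 11, C1qb, ranked 3056 among the 13018 genes tested. Values this low were thus common over all genes, and the count of 11 alone does not set the members apart. Leaving out Zeb2 cTg IR heart 2 gave 4 members higher (C1qa, C1qc, Cd163 and Cd74) and 4 lower (Cd53, Mpeg1, Ccr2 and Gpnmb). Leaving out Zeb2 WT IR heart 3 gave none in either direction. Over all genes, the first fit gave 1594 higher and 825 lower and the other 50 and 48. The number of members higher was also 0 without Zeb2 WT IR heart 2 or Zeb2 cTg IR heart 1. The number of members lower was 2 without Zeb2 WT IR heart 2 and 0 without Zeb2 cTg IR heart 3. Over all genes, 112 were higher and 133 lower without Zeb2 WT IR heart 2. These numbers were 81 and 68 without Zeb2 cTg IR heart 1 and 71 and 46 without Zeb2 cTg IR heart 3.

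Cd163 had 2.35, 2.27 and 2.53 CPM in Zeb2 WT IR hearts and 6.79, 10.8 and 4.66 CPM in the Zeb2 cTg-labelled libraries, a log2 fold change of 1.63 ± 0.29 (SE, n = 3 per group, edgeR, adjusted p = 0.0204). The values were far apart, and the labelled transgenic hearts were the more variable group. Ccr2 had 3.26, 4.37 and 8.60 CPM in Zeb2 WT IR hearts and 2.18, 1.03 and 1.07 CPM in the others, a log2 fold change of -1.95 ± 0.41 (SE, edgeR, adjusted p = 0.0357). Here the Zeb2 WT IR hearts varied more, with heart 3 the highest. The log2 ratio of Ccr2 to Cd163 was 0.48, 0.95 and 1.76 in Zeb2 WT IR hearts and -1.64, -3.38 and -2.13 in the Zeb2 cTg-labelled libraries. This ratio is a description only: both genes lay apart between the groups in opposite directions, so it could not overlap. Cd163 and Ccr2 each remained past the threshold in 3 of the 6 leave-one-out fits, with log2 fold changes from 1.25 to 1.88 and from -2.37 to -1.44. Cd163 was lost without Zeb2 WT IR heart 2, Zeb2 WT IR heart 3 or Zeb2 cTg IR heart 1, and Ccr2 without Zeb2 WT IR heart 2, Zeb2 WT IR heart 3 or Zeb2 cTg IR heart 3.

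No other resident marker passed. Mrc1 had 43.1, 44.1 and 47.4 CPM in Zeb2 WT IR hearts and 37.8, 52.9 and 38.4 CPM in the Zeb2 cTg-labelled libraries (log2 fold change -0.06). Folr2 had 3.34, 3.64 and 3.37 CPM against 3.35, 5.73 and 4.97 CPM (0.45, adjusted p = 0.238, edgeR), and Lyve1 and Timd4 had log2 fold changes of 0.25 and 0.43. The groups of these 4 genes overlapped, and Cd163, Folr2 and Lyve1 were highest in Zeb2 cTg IR heart 2.

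Beside Ccr2, the recruited group held Cx3cr1, at 2.42, 1.78 and 5.66 CPM against 2.60, 0.916 and 1.15 CPM (log2 fold change -1.11 ± 0.49 (SE), adjusted p = 0.204, edgeR), with overlap. Itgam, Cd14 and Cd86 lay between -0.08 and 0.48. Itgax was not tested because of low counts (8, 7 and 24 against 8, 2 and 4).

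In the lipid-associated group no tested gene passed and all 3 were below 0. Gpnmb had 1.36, 0.850 and 2.27 CPM in Zeb2 WT IR hearts and 0.419, 0.496 and 0.562 CPM in the Zeb2 cTg-labelled libraries, which did not overlap (log2 fold change -1.59 ± 0.39 (SE, edgeR), adjusted p = 0.0571). Trem2 had 0.734, 0.607 and 1.00 CPM against 0.545, 0.496 and 0.646 CPM, which overlapped (log2 fold change -0.47), and Lgals3 had a log2 fold change of -0.43. Spp1 was counted 11, 7 and 64 times in Zeb2 WT IR hearts and 2, 0 and 5 times in the others, and the filter on low counts left it untested. With no filter its log2 fold change was -3.49 (edgeR, adjusted p = 0.00091). That setting called more genes altogether, 1029 higher and 524 lower in place of 278 and 196. It also gave Ccr2 an adjusted p of 3.1e-05 in place of 0.0357 (both edgeR). The counts of Spp1 did not overlap, but Zeb2 WT IR heart 3 held 64 of the 82 counts of its group. The summed counts, 82 against 7, give a ratio of 12.2 with a 95% exact interval of 5.68 to 31.4 for counting error alone, which is far narrower than the spread among these hearts.

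Of the lysosomal and bactericidal genes, Mpeg1 came nearest to the threshold, at 8.99, 7.08 and 16.6 CPM against 4.69, 2.82 and 4.97 CPM (log2 fold change -1.39 ± 0.33 (SE, edgeR), adjusted p = 0.0514), without overlap. Cybb did not overlap either, at 9.57, 9.19 and 12.6 CPM against 8.38, 8.66 and 6.63 CPM (-0.41, adjusted p = 0.190, edgeR). Lyz1, Lyz2 and Cd68 lay between -0.37 and 0.19. Among the lineage genes, Cd53 did not overlap, at 5.21, 5.10 and 7.33 CPM against 3.94, 5.0 and 3.09 CPM (-0.56, adjusted p = 0.174, edgeR), and Csf1r had 23.7, 18.9 and 20.7 CPM against 27.7, 23.1 and 28.9 CPM (0.33, adjusted p = 0.190, edgeR). The other 5 lineage genes lay between -0.25 and 0.35.

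The 3 C1q chains were all above 0 and none passed. C1qa had 7.23, 5.06 and 8.10 CPM in Zeb2 WT IR hearts and 12.5, 7.90 and 13.7 CPM in the Zeb2 cTg-labelled libraries (log2 fold change 0.74 ± 0.24 (SE, edgeR), adjusted p = 0.106), and C1qc had 8.88, 6.68 and 7.63 CPM against 11.8, 8.28 and 11.9 CPM (0.46, adjusted p = 0.164, edgeR). Zeb2 cTg IR heart 2 overlapped the Zeb2 WT IR hearts for both genes. C1qb, at 0.37, did not overlap. The GC content of the longest transcripts of these genes was 57.4% to 59.5%, against a median of 49.3% over all genes tested, and across all genes log2 fold change in this table followed GC content (Spearman's rho 0.552 across 12892 genes, which are not replicates). With a correction for GC content the C1qa, C1qb and C1qc values were 0.23, -0.02 and 0.06. Cd163, with a GC content of 47.9%, had a corrected value of 1.66 (adjusted p = 0.0117, edgeR) in place of 1.63. Ccr2, with a GC content of 39.4%, lay on the low side of the GC trend. Its value moved from -1.95 (adjusted p = 0.0357, edgeR) to -1.71 (adjusted p = 0.0473, edgeR). With the replicate block added to the correction, Ccr2 did not pass (adjusted p = 0.0592, edgeR).

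No MHC class II gene passed, and the groups of all 5 overlapped. Ctss had 5.68, 8.13 and 13.0 CPM against 5.99, 8.40 and 6.68 CPM (log2 fold change -0.35, adjusted p = 0.455, edgeR), and Cd74 had 19.4, 12.2 and 20.2 CPM against 32.0, 10.04 and 27.6 CPM (0.42, adjusted p = 0.496, edgeR). H2-Aa, H2-Ab1 and H2-Eb1 lay between -0.08 and 0.14. The libraries labelled Zeb2 cTg IR were split, with hearts 1 and 3 above every Zeb2 WT IR heart for Cd74 and H2-Eb1, and heart 2 the lowest of all 6 hearts for Cd74, H2-Aa, H2-Ab1 and H2-Eb1 (10.04, 8.47, 2.21 and 3.09 CPM). Fc receptors and adaptors lay between -0.35 and 0.05, with Fcer1g at 3.52, 2.43 and 3.93 CPM against 2.43, 2.44 and 2.86 CPM and Fcgr1 at 0.917, 0.769 and 1.00 CPM against 0.671, 1.07 and 0.618 CPM. Both overlapped.

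Of the other genes of these pathways 5 were called, all higher, against 2.14% of all genes. Syk and Plcg2, kinase and phospholipase of ITAM signalling, were higher in the Zeb2 cTg-labelled libraries (log2 fold changes 0.82 and 0.96, 2 of 9 tested), as were the lysosomal protease Ctsd (0.68, 1 of 12), the immunoproteasome subunit Psmb10 (1.34, 1 of 15) and Siglec1, a sialic acid receptor of macrophages (0.95, 1 of 18). The lists of NADPH oxidase (5 tested), growth and transcription factor (12), further lipid-associated (9) and other complement genes (7) held no call. No gene of the 8 lists was lower. Log2 fold change followed GC content in this table, and no GC-corrected values are given for the 5 genes called.

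Markers of other cell types moved between these groups too. The 9 fibroblast markers summed to 1250, 915 and 2036 CPM in Zeb2 WT IR hearts and to 536, 579 and 656 CPM in the Zeb2 cTg-labelled libraries, without overlap, and Col3a1, Lum and Col1a2 were lower (log2 fold changes -1.88, -1.31 and -1.39). Of the 22 cardiomyocyte markers, Mybpc3 and Tnnt2 were higher (0.84 and 0.68), and the sum was 66989 to 72815 CPM against 74897 to 78997 CPM. The 8 endothelial markers summed to 597 to 634 CPM against 494 to 526 CPM and the 7 smooth muscle and pericyte markers to 463 to 501 CPM against 391.6 to 460.1 CPM, both without overlap, although Acta2, of the latter list, was higher (1.67). Zeb2 WT IR heart 3 had the highest fibroblast sum and the highest value of its group for 29 of the 39 members, and Zeb2 WT IR heart 2 the lowest fibroblast sum and the lowest value for 29. The part of these shifts in the values of Ccr2, Gpnmb and Mpeg1 was not tested. With libraries scaled on cardiomyocyte markers, the median of all genes moved by -0.193, Mpeg1, Ccr2 and Gpnmb were lower and Cd163 was higher, and 141 of all genes were higher and 329 lower in place of 278 and 196. Summed T cell, neutrophil and mast cell markers each stayed below 4 CPM in all 6 hearts.

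Set side by side, 25 members rose in WT IR hearts and were tested in the second table. Of these, 15 were below 0 and 10 above 0 in the Zeb2 cTg-labelled libraries. Over all genes tested there 50.6% were above 0. The share among all genes that rose in WT IR hearts was not counted, so the 15 and 10 have no matching background. Across all genes, log2 fold change followed GC content in opposite directions in the 2 tables. Spearman's rho was -0.292 in the WT table (13609 genes) and 0.552 in the Zeb2 table (12892 genes). The part of GC content in the 15 and 10 was not tested. Among all members tested in the second table, 11 crossed 0 in at least 1 fit with a library left out. Ccr2 was higher in WT IR than in WT sham hearts and lower in the Zeb2 cTg-labelled libraries than in Zeb2 WT IR hearts. Cd163 was not called after IR in WT hearts and was higher in the Zeb2 cTg-labelled libraries. Its mean was 5.68 CPM in WT sham, 5.22 CPM in WT IR and 2.38 CPM in Zeb2 WT IR hearts, and 7.40 CPM in the Zeb2 cTg-labelled libraries. The Zeb2 WT IR hearts thus lay below every heart of the WT table for Cd163. Whether its difference reflects a high level under the transgenic label or a low level in the Zeb2 WT IR hearts was not tested. The tables differed in level as well: C1qa lay between 21.4 and 43.6 CPM in WT IR hearts and between 5.06 and 8.10 CPM in Zeb2 WT IR hearts, and Gpnmb between 2.41 and 5.37 and between 0.850 and 2.27 CPM, although both groups are wild-type hearts 14 days after IR. These differences between tables were not tested, because group and table cannot be told apart there.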

How the data were processed

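RNA was sequenced from 12 mouse hearts, 3 per group, as labelled. The authors aligned stranded single-end reads with STAR 2.4.2a to mm10, counted them per gene with HTSeq 0.6.1 (tools and versions from the submitters' processing notes; GENCODE M4 in the methods) and deposited whole-number counts without normalization in 2 tables; all columns were used. The records name an mRNA kit and the methods a total RNA kit.

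The tables were normalized and fitted separately, with edgeR 4.0.16 under R 4.3.3 (TMM, filterByExpr with minimum count 10 and minimum total 15, quasi-likelihood test, Benjamini-Hochberg adjustment over all genes tested, threshold 0.05), without covariates. CPM are TMM-normalized counts per 1000000 over all counted genes, mitochondrial ones included. Each library came from another animal, and no 2 libraries held identical counts. Alternatives were RLE, upper quartile and cardiomyocyte-marker size factors (22 genes), no mitochondrial genes, at least 10 counts in every library, no filter, DESeq2 1.42.0, limma-voom 3.58.1, the replicate number as a block, a GC offset (loess, span 0.5), both together, and each library left out in turn. The scripts were tested on simulated data. Changes of 1 on the log2 scale were recovered for 79.6% of such genes in the WT table and 53.1% in the Zeb2 table. For changes of 2 these shares were 99.0% and 98.9%. Of the genes called there, 7.37% and 7.59% were unchanged. A gene that did not pass in the Zeb2 table can therefore still differ. Positions, transcript lengths and GC content come from GENCODE M21 (GRCm38) and promoters from RefSeq (GRCm38.p6); where a gene has several starts, the most upstream one was used. Within the bounds of 7 members another gene is annotated on the same strand, so reads there may have been left uncounted. Figures were drawn with matplotlib 3.10.9.

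All 39 members are described by role. Per-library values are given for the 2 members of each role with the smallest p in each comparison and for members that overlapped against their role; in other lists the 3 called genes with the smallest p are named. A gene that meets this rule is not reported here. The members and lists were chosen with earlier results of these data known.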

Additional observations from a re-analysis of the deposited data

How the results depend on the processing

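No called member changed direction in any fit, and no member was lower in WT IR hearts in any. The number of members higher in WT IR hearts was 26 and fell to 17 with limma-voom. It was 32 with DESeq2 and 35 with no filter or cardiomyocyte-marker size factors. With each library left out it lay between 6 and 36, and the number over all genes between 226 and 2543, in place of 1519. In the Zeb2 cTg-labelled libraries the number of members higher was 1 and became 2 with no filter, with DESeq2 and with the replicate block. With each library left out it lay between 0 and 4. The number lower was 1, and became 2 with RLE, 3 with cardiomyocyte-marker size factors, 5 with no filter, 3 with DESeq2, 0 with limma-voom, 3 with the replicate block, 2 with the GC offset and 2 with the block and GC offset together. It lay between 0 and 4 with each library left out. The calls over all genes moved too. They were 278 higher and 196 lower in the fit used above, 1029 and 524 with no filter, and 671 and 425 with DESeq2. With each library left out they lay between 50 and 1594 higher and between 46 and 825 lower. Ccr2 was not called with limma-voom (adjusted p = 0.0509) or with the block and GC offset together (adjusted p = 0.0592), where the 2 lower members were Mpeg1 and Gpnmb. The members added across these settings were Mpeg1, Gpnmb, C1qa, Cx3cr1 and Spp1 (the last 2 with no filter), and without Zeb2 cTg IR heart 2 also Cd53, C1qc and Cd74. The cause of these shifts was not tested.

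The deviations of same-numbered hearts had a mean correlation of -0.01 in the WT table and 0.12 (from -0.04 to 0.26) in the Zeb2 table. With 3 hearts per group, these correlations cannot show whether same-numbered hearts share more than a number. The replicate block gave 30 members higher in WT IR hearts. In the Zeb2 cTg-labelled libraries it gave 1164 genes higher and 649 lower, in place of 278 and 196.

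Among uncalled members the sign changed as follows (log2 fold change). In WT IR hearts, cardiomyocyte-marker size factors gave 0.16 for Cd163 and 0.22 for Timd4. In the Zeb2 table they gave -0.026 for Cd68, -0.14 for Itgam, -0.12 for Fcgr3, -0.21 for Tyrobp, -0.18 for H2-Aa and -0.11 for H2-Eb1. The GC offset gave -0.15 for Spi1, -0.059 for Laptm5, -0.022 for C1qb, 0.091 for Mrc1, 0.10 for Cd86 and -0.27 for Tyrobp. With the replicate block added it gave -0.16, -0.060, -0.031, 0.088, 0.096 and -0.25, and also -0.041 for Cd74 and -0.064 for H2-Eb1. RLE gave -0.0053, upper quartile -0.015 and DESeq2 -0.0050 for Tyrobp, and limma-voom -0.0045 for H2-Aa. With each library left out, values ran across 0 from -0.36 to 0.21 for Timd4 (WT IR hearts) and, in the Zeb2 table, from -0.24 to 0.020 for Mrc1, -0.18 to 0.50 for Lyve1, -0.16 to 0.16 for Itgam, -0.20 to 0.042 for Cd86, -0.73 to 0.36 for Lgals3, -0.20 to 0.22 for Fcgr3, -0.13 to 0.26 for Tyrobp, -0.23 to 0.33 for H2-Aa, -0.37 to 0.27 for H2-Ab1, -0.11 to 0.50 for H2-Eb1 and -0.59 to 0.024 for Ctss. Members under about 1 CPM, such as Spp1, Itgax, Lyz1 and Timd4, rest on few counts at 17.2 to 37.8 counts per CPM and 3 hearts per group.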
